A study of Mus with 12 samples.

Results

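The aquaporins are the family of membrane channels that carry water, and in some members glycerol, across cell membranes. Their transcripts were examined in the uterus of pregnant mice. Members were taken as the gene rows named Aqp1, Aqp2, Aqp3, Aqp4, Aqp5, Aqp7, Aqp8, Aqp9 or Aqp11 that hold at least 1 Ensembl transcript, and all 9 genes had 1 such row in each of the 2 gene tables. They are 9 of 80228 named rows in the table of E0.5 and E4.5 and 9 of 39455 named rows in the table of E15.5 and E18.5. The names define a gene family and no measured value entered the rule, but the members were chosen with earlier results of these data known.

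RNA was sequenced from the whole uterus of 12 pregnant ICR mice, an outbred strain, listed by the submitters as 8 weeks old. There was 1 mouse per library and no treatment or genetic change named for any group. The paper instead gives a common age at mating, by which mice taken on later days were older. Each of the 4 groups held 3 mice, and they are named by the day after mating on which the uterus was taken. E0.5 and E4.5 form the implantation stage of the study and E15.5 and E18.5 its labor stage, and within each stage the days were compared because circulating progesterone (P4) differs between them. The question put to the aquaporins was which members were higher or lower at E0.5 than at E4.5, and at E18.5 than at E15.5. A whole uterus holds epithelium, stroma, muscle and vessels together, so in such bulk samples fewer cells of a type and less RNA per cell cannot be told apart.

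Water moves through an aquaporin down an osmotic gradient, which epithelial cells set up by pumping ions, so these channels set how fast fluid can enter or leave a cavity. The classical members carry water almost alone, the aquaglyceroporins also carry glycerol and other small solutes, and a more distant group resides in membranes inside the cell. In the uterus, aquaporins are known from the luminal and glandular epithelium, the stroma, the vessels and the muscle, and luminal fluid is abundant around ovulation and is removed before the embryo attaches.

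Levels are given as FPKM, the sequenced fragments of a gene divided by its transcript length and by the library's depth, so that genes can be set side by side within a table. The table of E0.5 and E4.5 also gives whole-number counts, and its libraries held between 58020989 and 70906881 counts. The table of E15.5 and E18.5 gives FPKM only, so its depth is unknown. The tables were assembled and normalized separately, and a level in one against a level in the other is a description only. The row of a gene can also hold different transcripts in them, 12 against 1 Ensembl transcript for Aqp4 and 6 against 1 for Aqp5.

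The library labelled E4.5 replicate 3 stood apart from its group. In it the FPKM of 8 ovary markers summed to 841, against 4.26 to 6.39 in the other 5 libraries of its table, and 8 oviduct markers summed to 101 against 8.49 to 24.6. In the same library 8 uterus markers summed to 22.1 against 76.3 to 126, and 8 smooth muscle markers to 208 against 804 to 1221. Its Spearman correlations with the other libraries of its day over 33859 rows were 0.619 and 0.643, where all other same-day pairs of that table had 0.763 to 0.830. All 8 uterus markers were detected in every one of the 12 libraries. Tested members at E0.5 against E4.5, and the calls in gene lists, are therefore given with and without this library, and its part in the results that include it was not tested. In the other table E15.5 replicate 1 differed from the other E15.5 libraries in several lists, with 1477 FPKM summed over 8 stroma and decidua markers against 189 and 213, 28.4 FPKM over the neutrophil markers against 3.78 and 3.17, and 12.4 FPKM over the trophoblast and placenta markers against 3.15 and 3.10. It was the lowest of its day for yolk sac markers, at 11.2 FPKM against 151.4 and 881. Leaving it out moved the log2 fold change of Prl8a2 at E18.5 against E15.5 from -2.07 to -0.70. Every other marker of the stroma and decidua list moved by less.

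At E0.5 the uterus expressed mainly Aqp1, with Aqp5 and Aqp4 far below it, and by E4.5 the transcripts of Aqp1 and Aqp4 were lower and those of Aqp8 were present. At E0.5, Aqp1 was upregulated with a mean FPKM 2.93 times that at E4.5 and Aqp4 with a mean 25.0 times that at E4.5, while the E4.5 mean of Aqp8 was 73.3 times that at E0.5. At E15.5 the order was different, with Aqp8 at the top, Aqp1 next and Aqp5 after it, and by E18.5 Aqp8 was downregulated, with a mean at E15.5 that was 2.42 times that at E18.5. The annotated row of Aqp9, at a low level, was also downregulated at E18.5 when all libraries were kept (adjusted p = 0.329, limma with Benjamini-Hochberg). This did not hold without E18.5 replicate 1 or without E18.5 replicate 3, and could not be tested without E15.5 replicate 1. Another row named Aqp9, with no Ensembl transcript, did not show the same order. Aqp2, Aqp3, Aqp7 and Aqp11 stayed under 2 FPKM in every library.

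**Figure D1:**
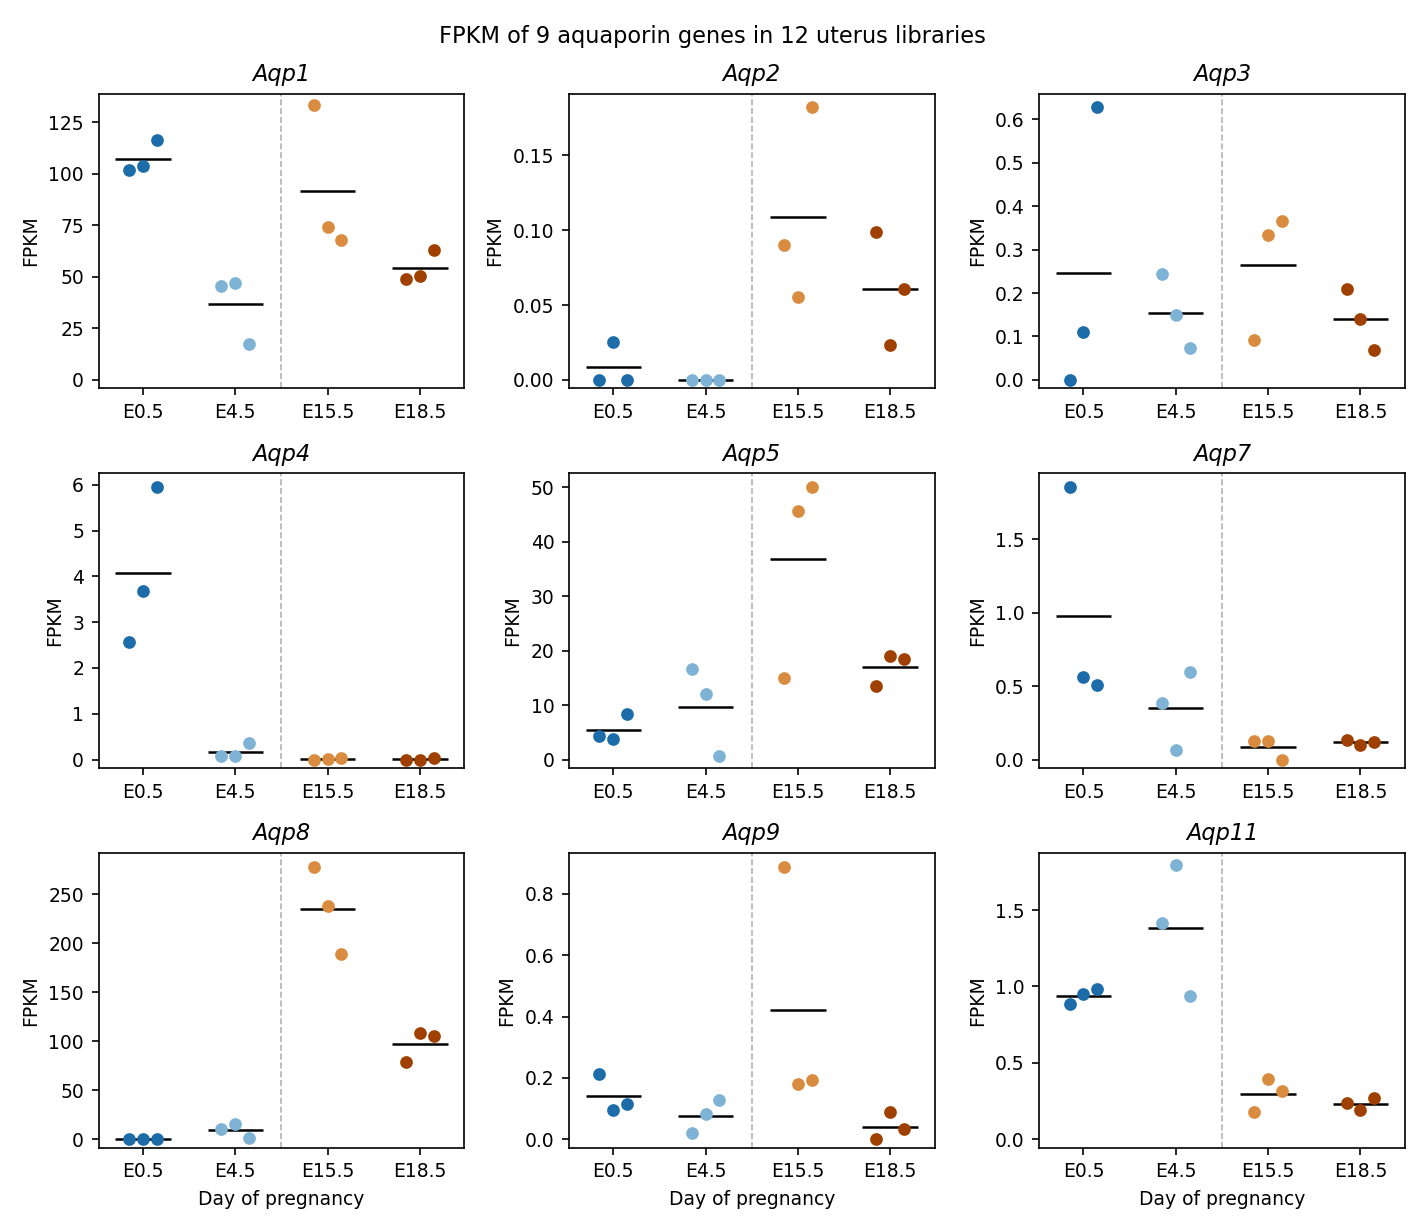
FPKM of the 9 aquaporin genes (1 panel each, linear vertical axes with different ranges) in the 3 libraries of each day, replicates 1 to 3 from left to right; horizontal bars are group means and the dashed line separates the 2 tables, which were normalized separately. The groups of E0.5 and E4.5 are apart for Aqp1, Aqp4 and Aqp8, and those of E15.5 and E18.5 for Aqp1, Aqp8 and Aqp9.

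A gene was called when its absolute log2 fold change was at least 1 with an unadjusted p under 0.05, the criterion of the study. To enter the test a gene needed an average of 0.1 FPKM or more in its table of 6 libraries. At E0.5 against E4.5, edgeR's quasi-likelihood test on the counts covered 8 of the 9 members, since Aqp2 was under that minimum. It called 3 of the 8, Aqp1 and Aqp4 as higher and Aqp8 as lower, where 12.1% of all 52738 tested rows were called (6.13% higher and 5.98% lower). The E0.5 and E4.5 libraries did not overlap for the same 3 members, where 25.8% of all tested rows had groups that did not overlap (12.3% higher, 13.4% lower). Past the stricter rule of a Benjamini-Hochberg adjusted p under 0.05 over all tested rows was 1 member, Aqp4, against 1.4% of all rows. At any fold change 3 members had an unadjusted p under 0.05, against 17.6% of all rows. The median log2 fold change was 0.79 over the 8 members tested and -0.03 over all rows.

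Aqp1 is the water channel of capillary endothelium, red cells and the kidney's proximal tubule. Its FPKM was 102, 104 and 116 at E0.5 against 45.4, 47.0 and 17.6 at E4.5, from 20153 to 26624 counts at E0.5 and 3744 to 10142 at E4.5. All E0.5 libraries lay above all E4.5 libraries, and the lowest value was that of the library labelled E4.5 replicate 3. Its log2 fold change was 1.56 (SE 0.38, unadjusted p = 0.00504, adjusted p = 0.105, edgeR quasi-likelihood with Benjamini-Hochberg). Without the library labelled E4.5 replicate 3 the E4.5 mean was 46.2 FPKM, the ratio of the means 2.32 and the log2 fold change 1.22 (SE 0.14, adjusted p = 0.00607 by the same method). The row covers 55336432 to 55348555 of chromosome 6 in GRCm38 and is read on the plus strand.

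The summed level of vessel markers was higher on the other day, E4.5. The 8 endothelial markers, all detected in every library, summed to 29.8 to 38.5 FPKM at E0.5 against 49.6 to 75.9 FPKM at E4.5, and 2 of them, Cdh5 (log2 fold change -1.47) and Emcn (-1.10), were called lower at E0.5. These 2 were joined by Kdr (-1.03) and Egfl7 (-1.18) without the library labelled E4.5 replicate 3. Per 100 FPKM of these markers, Aqp1 had 265, 269 and 391 FPKM at E0.5 against 59.9, 88.7 and 35.4 FPKM at E4.5. That these ratios do not overlap follows from Aqp1 being higher and the marker sum lower in every E0.5 library, and is no separate result. The erythroid markers, 7 of 8 with a row, summed to 97.3 to 267 FPKM at E0.5, then to 389, 63.6 and 705 FPKM at E4.5, so those groups overlapped.

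Aqp4 is the water channel of astrocyte endfeet and of the basolateral membrane of several epithelia. It had 2.57, 3.69 and 5.96 FPKM at E0.5 against 0.0692, 0.0685 and 0.351 FPKM at E4.5, from 1368, 1705 and 3235 counts against 37, 35 and 178. The groups were apart, and within E4.5 the library labelled replicate 3 was the highest. Between the days the log2 fold change was 4.68 (SE 0.79, adjusted p = 0.0478, edgeR quasi-likelihood with Benjamini-Hochberg). Without that library the mean at E0.5 was 59.2 times that at E4.5 and the log2 fold change was 5.88 (SE 0.47, adjusted p = 0.00201 by the same method). Leaving out any other single library kept Aqp4 called as higher but took its adjusted p to between 0.104 and 0.172. In the table of E15.5 and E18.5 Aqp4 was almost absent, listed at 0 in 3 of 6 libraries and at most 0.0324 FPKM in the others, from a row with 1 Ensembl transcript where the other table had 12.

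Aqp5 sits in the apical membrane of secretory epithelia such as salivary, lacrimal and sweat glands and of alveolar cells in the lung. Its FPKM was 4.31, 3.79 and 8.44 at E0.5 and 16.6, 12.004 and 0.561 at E4.5, from 731 to 1910 counts at E0.5 and 3660, 2548 and 120 counts at E4.5. Replicates 1 and 2 of E4.5 were above every E0.5 library, and the library labelled E4.5 replicate 3 was below every other one, so the groups overlapped. The log2 fold change was -0.81 (SE 0.99, adjusted p = 0.717, edgeR quasi-likelihood with Benjamini-Hochberg), and Aqp5 was not called. Without the library labelled E4.5 replicate 3 it was called as lower at E0.5, with a log2 fold change of -1.38 (SE 0.37, unadjusted p = 0.00765, adjusted p = 0.0789 by the same method), and the mean at E4.5 was 2.59 times that at E0.5. Aqp5 covers 99590782 to 99594829 of chromosome 15 and is read on the plus strand, with Aqp2 ending 6234 bases before it and Aqp6 starting 6570 bases after it.

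Aqp8 carries water and also ammonia and hydrogen peroxide, and is known from the pancreas, liver and colon. It had 0, 0.0624 and 0.308 FPKM at E0.5 against 10.2, 16.0 and 0.868 FPKM at E4.5. These came from 0, 8 and 44 counts against 1377, 2071 and 112, and a count of 0 in E0.5 replicate 1 allows up to 0.0427 CPM, counts scaled by the library total. The groups did not overlap, although the library labelled E4.5 replicate 3 was the lowest of its day and closest to E0.5. The fit gave a log2 fold change of -6.08 (SE 1.60, unadjusted p = 0.00702, adjusted p = 0.12, edgeR quasi-likelihood with Benjamini-Hochberg). Without that library the E4.5 mean was 106 times that at E0.5, and the log2 fold change was -6.62 (SE 1.09, adjusted p = 0.0186 by the same method). Leaving out E0.5 replicate 3, which held 44 of the 52 counts of its day, moved the fold change to -8.03 (adjusted p = 0.206 by the same method) and the ratio of the means to 289.9. Leaving out E0.5 replicate 1 gave -5.49 and leaving out E4.5 replicate 2 gave -5.43, with Aqp8 still called. The row covers 123462291 to 123468004 of chromosome 7, plus strand.

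Markers of the epithelium, the tissue in which Aqp5 is best known, summed to a higher level at E0.5. They reached 291 to 319 FPKM at E0.5 against 117, 167 and 80.7 FPKM at E4.5, and 4 of the 8 were called higher, Elf3 (log2 fold change 4.17), Krt19 (2.23), Krt8 (1.97) and Cdh1 (1.16), the last of which was not called without the library labelled E4.5 replicate 3 (0.86). Per 100 FPKM of these markers Aqp5 had 1.35, 1.303 and 2.69 FPKM at E0.5 and 14.1, 7.17 and 0.70 at E4.5, and Aqp4 had 0.81, 1.27 and 1.897 against 0.06, 0.04 and 0.43. On this scale too the groups overlapped for Aqp5 and not for Aqp4. The part of the epithelial level in the change of either gene was not tested.

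The water channel Aqp2 is the vasopressin-regulated channel of the kidney's collecting duct. It was detected at the implantation stage in 1 library, with 3 counts (0.0254 FPKM) in E0.5 replicate 2, and was not tested. At the labor stage it had 0.0551 to 0.182 FPKM at E15.5 against 0.0233 to 0.0989 FPKM at E18.5, and its 6-library mean of 0.0850 FPKM was again under the minimum. No difference in Aqp2 was detectable at these levels.

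The 3 aquaglyceroporins were low on all days. Aqp3, found in the basolateral membrane of the collecting duct and in skin, had 0, 0.109 and 0.628 FPKM at E0.5 (0, 16 and 101 counts) and 0.244, 0.148 and 0.0722 FPKM at E4.5 (39, 23 and 11 counts). E0.5 held both its lowest and its highest library, and the log2 fold change of 0.67 (SE 1.48, adjusted p = 0.853, edgeR quasi-likelihood with Benjamini-Hochberg) turned to -1.41 without E0.5 replicate 3 and was 0.31 without the library labelled E4.5 replicate 3. Aqp7, through which fat cells release glycerol, had 1.86, 0.563 and 0.509 FPKM at E0.5 against 0.386, 0.0633 and 0.599 FPKM at E4.5. The groups overlapped and the log2 fold change was 1.49 (SE 0.85, adjusted p = 0.409 by the same method), with a ratio of the means of 2.79. Without E0.5 replicate 1, its highest library, the fold change was 0.66 and the ratio 1.53, and without the library labelled E4.5 replicate 3 they were 2.09 (SE 0.92, adjusted p = 0.245 by the same method) and 4.34, with Aqp7 not called in either. Aqp9, a channel for glycerol and urea in liver cells that white blood cells also make, had 0.212, 0.0967 and 0.115 FPKM at E0.5 against 0.0214, 0.0816 and 0.126 FPKM at E4.5, with a log2 fold change of 0.90 (SE 0.73, adjusted p = 0.562). These groups overlapped as well, and the fold change was 1.45 (SE 0.82, adjusted p = 0.366) without the library labelled E4.5 replicate 3.

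Aqp7 was highest in the library with the highest fat markers. The 8 fat markers summed to 370, 131 and 120 FPKM at E0.5, then to 44.98, 17.1 and 148 FPKM at E4.5. Per 100 FPKM of fat markers Aqp7 had 0.50, 0.43 and 0.43 FPKM at E0.5 against 0.86, 0.37 and 0.40 FPKM at E4.5, a range narrower than that of its own level, and these groups overlapped too. None of the 8 fat markers was called in edgeR's test over all 6 libraries, with 0 at an unadjusted p under 0.05, whereas 7 of the 8 were called higher at E0.5 without the library labelled E4.5 replicate 3. The part of fat tissue in the level of Aqp7 was not tested. At the labor stage the same ratio was 0.13, 0.14 and 0 at E15.5 and 0.11, 0.16 and 0.14 at E18.5. The row of Aqp7 on the minus strand of chromosome 4 (41033074 to 41048139) ends 44582 bases before that of Aqp3.

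Aqp11 belongs to the distant group and resides in the membrane of the endoplasmic reticulum. Mice without it develop cystic kidneys. Its FPKM was 0.885, 0.951 and 0.983 at E0.5 and 1.41, 1.79 and 0.938 at E4.5, from 666 to 808 counts against 717 to 1380, so it was measured at a higher count than the aquaglyceroporins. The library labelled E4.5 replicate 3 lay among the E0.5 values and the other 2 of its day above them. Its log2 fold change was -0.53 (SE 0.27, adjusted p = 0.358, edgeR quasi-likelihood with Benjamini-Hochberg). Without that library it was -0.76 (SE 0.18, unadjusted p = 0.00452, adjusted p = 0.0587 by the same method), under the fold change the criterion asks for.

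**Figure D2:**
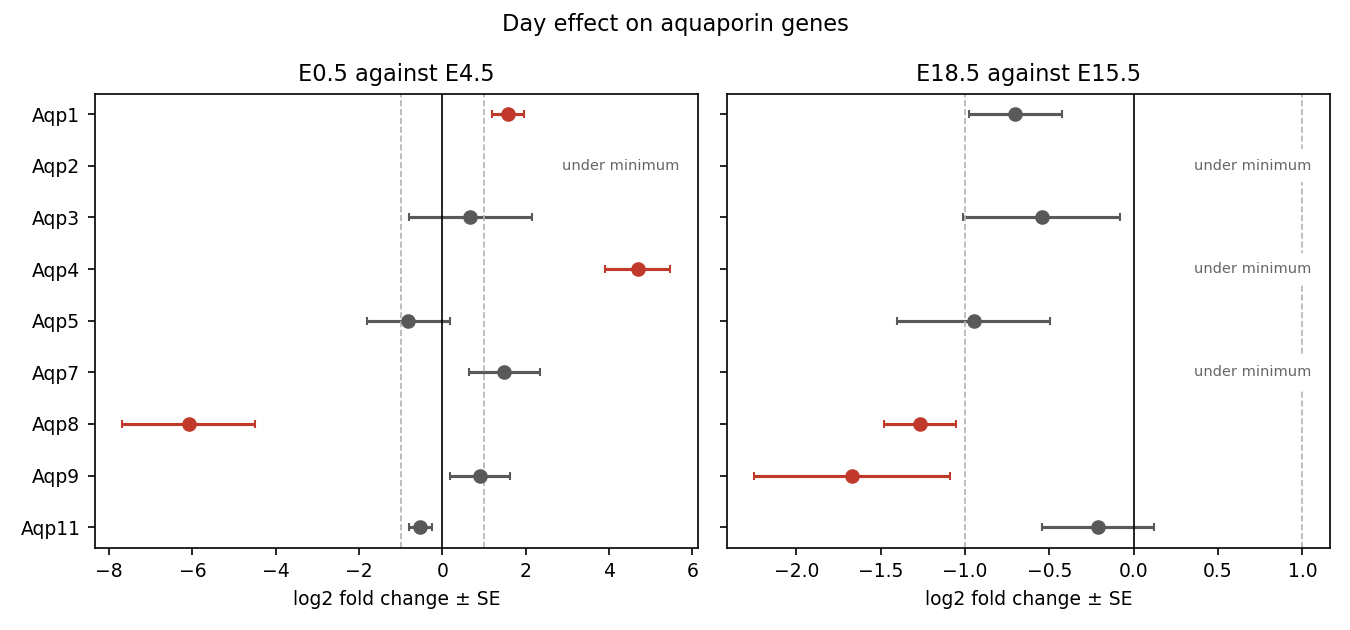
Fitted log2 fold change with its standard error for each aquaporin, E0.5 against E4.5 on the left (edgeR on counts) and E18.5 against E15.5 on the right (limma on log2(FPKM + 0.1)); red points passed the criterion of the study, dashed lines mark a log2 fold change of -1 and 1, and genes below the expression minimum have no point. The called genes are Aqp1, Aqp4 and Aqp8 on the left and Aqp8 and Aqp9 on the right, and the 6 genes tested on the right all have a point below 0.

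At E18.5 against E15.5, limma's test on log2(FPKM + 0.1) covered 6 members, since Aqp2, Aqp4 and Aqp7 were below the minimum. Fold changes on this scale understate the change of low genes. The 6 tested each had a fitted value below 0, and 2 were called as lower, Aqp8 and Aqp9, where 5.6% of all 29597 tested rows were called (2.89% higher, 2.71% lower). The groups did not overlap for Aqp1, Aqp8 and Aqp9, where 19.7% of all tested rows had groups that did not overlap (10.9% higher, 8.79% lower). None of the members passed a Benjamini-Hochberg adjusted p under 0.05 in limma's test, against 0.0439% of all rows, and 3 had an unadjusted p under 0.05 at any fold change, against 12% of all rows. The median log2 fold change was -0.83 over the 6 members and 0.02 over all rows.

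Aqp8 had the highest level of the family at the labor stage. Its FPKM was 278, 239 and 190 at E15.5 and 79.1, 108 and 105 at E18.5, so every E15.5 library lay above every E18.5 library. The means were 236 ± 44.5 FPKM (SD, n = 3) and 97.5 ± 16.1 FPKM (SD, n = 3). Its log2 fold change was -1.27 (SE 0.22, unadjusted p = 0.000626, adjusted p = 0.122, limma with Benjamini-Hochberg). It stayed between -1.42 and -1.12 and past the criterion with each of the 6 libraries left out in turn, and was -1.14 without E15.5 replicate 1.

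Several marker lists differed between these libraries as well. The 8 epithelial markers summed to 200, 306 and 430 FPKM at E15.5 and to 627 to 886 FPKM at E18.5, and 5 of the 8 were called higher at E18.5, Cldn4 (log2 fold change 2.59), Elf3 (2.31), Krt19 (1.61), Krt8 (1.56) and Cdh1, which was at the limit of the criterion and was not called without E15.5 replicate 1 (0.55). Per 100 FPKM of them Aqp8 had 139, 78.05 and 44.1 FPKM at E15.5 against 8.93, 17.3 and 16.6 FPKM at E18.5. The fall of Aqp8 was thus seen beside a higher level of epithelial markers. The 8 fetal yolk sac markers summed to 11.2, 151.4 and 881 FPKM at E15.5 and to 230, 626 and 195 FPKM at E18.5. In the library where they were highest, Aqp8 was the lowest of its day at E15.5 and the highest of its day at E18.5. The trophoblast and placenta markers, 7 of 8 with a row, summed to 12.4, 3.15 and 3.10 FPKM at E15.5 against 35.5 to 55.4 FPKM at E18.5, and 2 of the 4 tested were called higher at E18.5, the row that merges Tpbpa with another gene (4.02) and Psg19 (2.09). The part of these tissues in the level of Aqp8 was not tested.

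**Figure D3:**
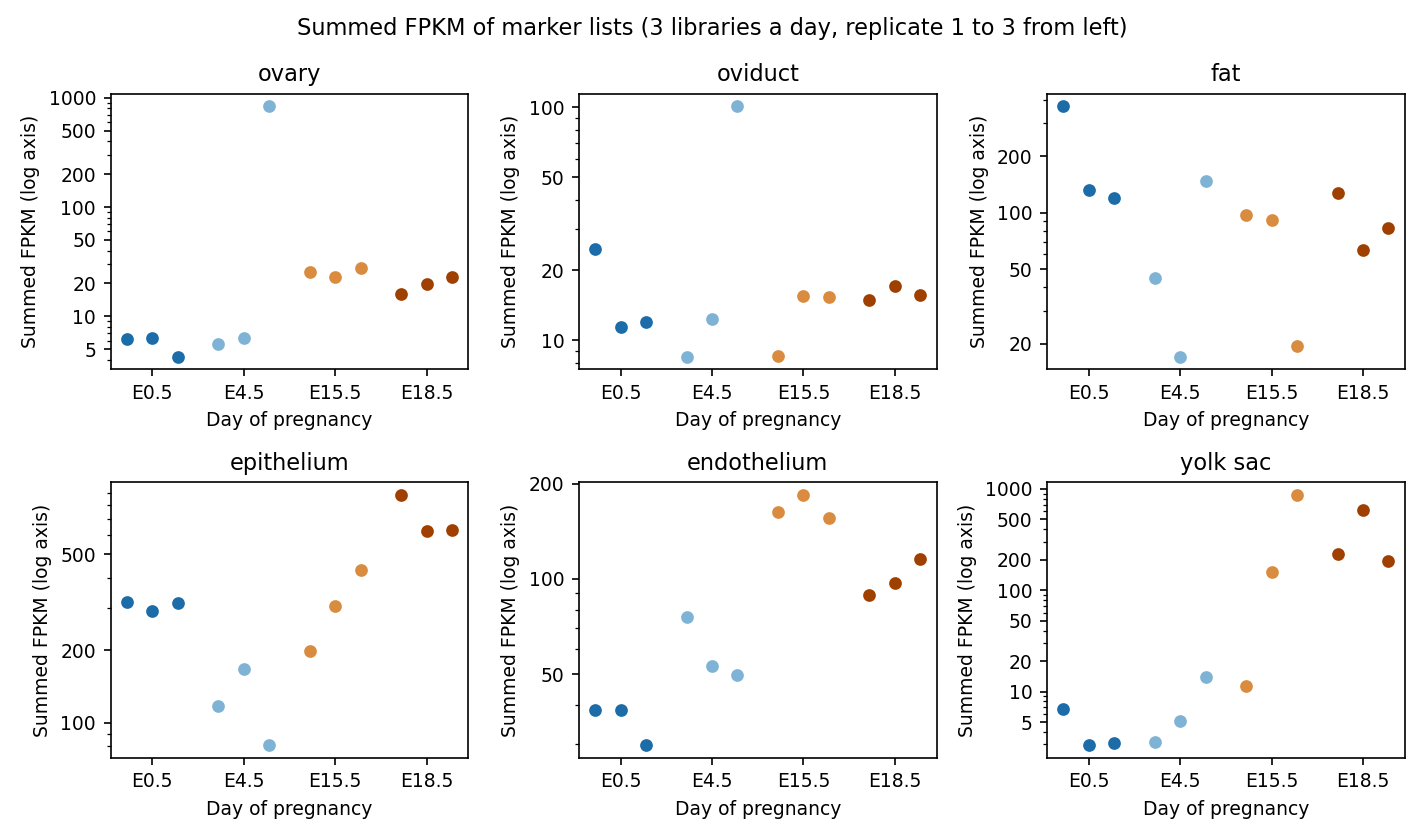
Summed FPKM of 6 marker lists (logarithmic vertical axes with different ranges) in each library, with replicates 1 to 3 of a day from left to right. The library labelled E4.5 replicate 3 is far above the others for ovary (841 FPKM) and oviduct markers (101 FPKM), epithelial markers are higher at E0.5 than at E4.5 and at E18.5 than at E15.5, and the summed endothelial level is lower at E0.5 and at E18.5.

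For Aqp1 the E15.5 libraries had 133, 74.0 and 67.7 FPKM and the E18.5 libraries 48.7, 50.4 and 63.1 FPKM. The groups were apart, but the nearest libraries of the days were close and E15.5 replicate 1 was far above the rest. The log2 fold change was -0.70 (SE 0.27, adjusted p = 0.384, limma with Benjamini-Hochberg), under the fold change the criterion asks for, and -0.40 without E15.5 replicate 1. The summed FPKM of the 8 endothelial markers was lower at E18.5 too, at 88.7 to 116 against 155.5 to 184.9 at E15.5, but 1 of the 8 was called lower, Cdh5 (log2 fold change -1.26), the list's median was -0.11 and Cldn5 had a fold change of 0.55. Per 100 FPKM of these markers Aqp1 had 82.0, 40.0 and 43.5 FPKM at E15.5 against 54.9, 51.9 and 54.5 FPKM at E18.5, and on this scale the groups overlapped.

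Aqp5 had 14.9, 45.7 and 50.1 FPKM at E15.5 against 13.4, 19.0 and 18.4 FPKM at E18.5. Replicates 2 and 3 of E15.5 were above all of E18.5, whereas E15.5 replicate 1 lay among the E18.5 values. With all 6 libraries the log2 fold change was -0.95 (SE 0.45, adjusted p = 0.456, limma with Benjamini-Hochberg) and Aqp5 was not called. Without E15.5 replicate 1 it was called as lower at E18.5, with a log2 fold change of -1.51 (SE 0.17, unadjusted p = 0.000176, adjusted p = 0.0859 by the same method), and the mean at E15.5 was 2.82 times that at E18.5. Per 100 FPKM of epithelial markers Aqp5 had 7.48, 14.95 and 11.7 FPKM at E15.5 against 1.52, 3.04 and 2.91 FPKM at E18.5, without overlap.

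Aqp9 had 0.889, 0.179 and 0.192 FPKM at E15.5 against 0, 0.0877 and 0.0337 FPKM at E18.5. The groups were apart, with E15.5 replicate 1 far above the others. Fitted over all 6 libraries, the log2 fold change was -1.67 (SE 0.58, adjusted p = 0.329, limma with Benjamini-Hochberg). Another row named Aqp9, with no Ensembl transcript, was higher than this row in 5 of 6 libraries and did not show the same order, at 0, 1.37 and 0.986 FPKM at E15.5 against 1.18, 1.65 and 0.645 FPKM at E18.5. Aqp9 fell below the minimum without E15.5 replicate 1 and could not be tested, and it was no longer called without E18.5 replicate 1 (-1.45) or replicate 3 (-1.66), or with a pseudocount of 1 (-0.41), and was called with a pseudocount of 0.01 (-3.22). E15.5 replicate 1 also had the highest sum over the 7 neutrophil markers with a row. It was 28.4 FPKM, against 2.83 to 7.00 FPKM in the other 5 libraries of that table. Leaving that library out moved S100a8 from a log2 fold change of -2.71 to -1.09, S100a9 from -0.25 to 0.26 and Cxcr2 from 2.61 to 2.98. Csf3r (-0.13 to -0.18), Mmp9 (0.26 to -0.13) and Retnlg (0.95 to 0.80) moved the other way. The part of these markers in the level of Aqp9 was not tested.

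Of the remaining members at the labor stage, Aqp3 had 0.0921, 0.333 and 0.366 FPKM at E15.5 against 0.209, 0.141 and 0.0681 FPKM at E18.5, with a log2 fold change of -0.54 (SE 0.46). Aqp11 had 0.177, 0.392 and 0.315 FPKM against 0.239, 0.191 and 0.270 FPKM, with a log2 fold change of -0.21 (SE 0.33). Their groups overlapped, and their adjusted p-values in limma's test were 0.665 and 0.824. Aqp7 had 0 to 0.125 FPKM at E15.5 against 0.0984 to 0.134 FPKM at E18.5 and was not tested.

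**Figure D4:**
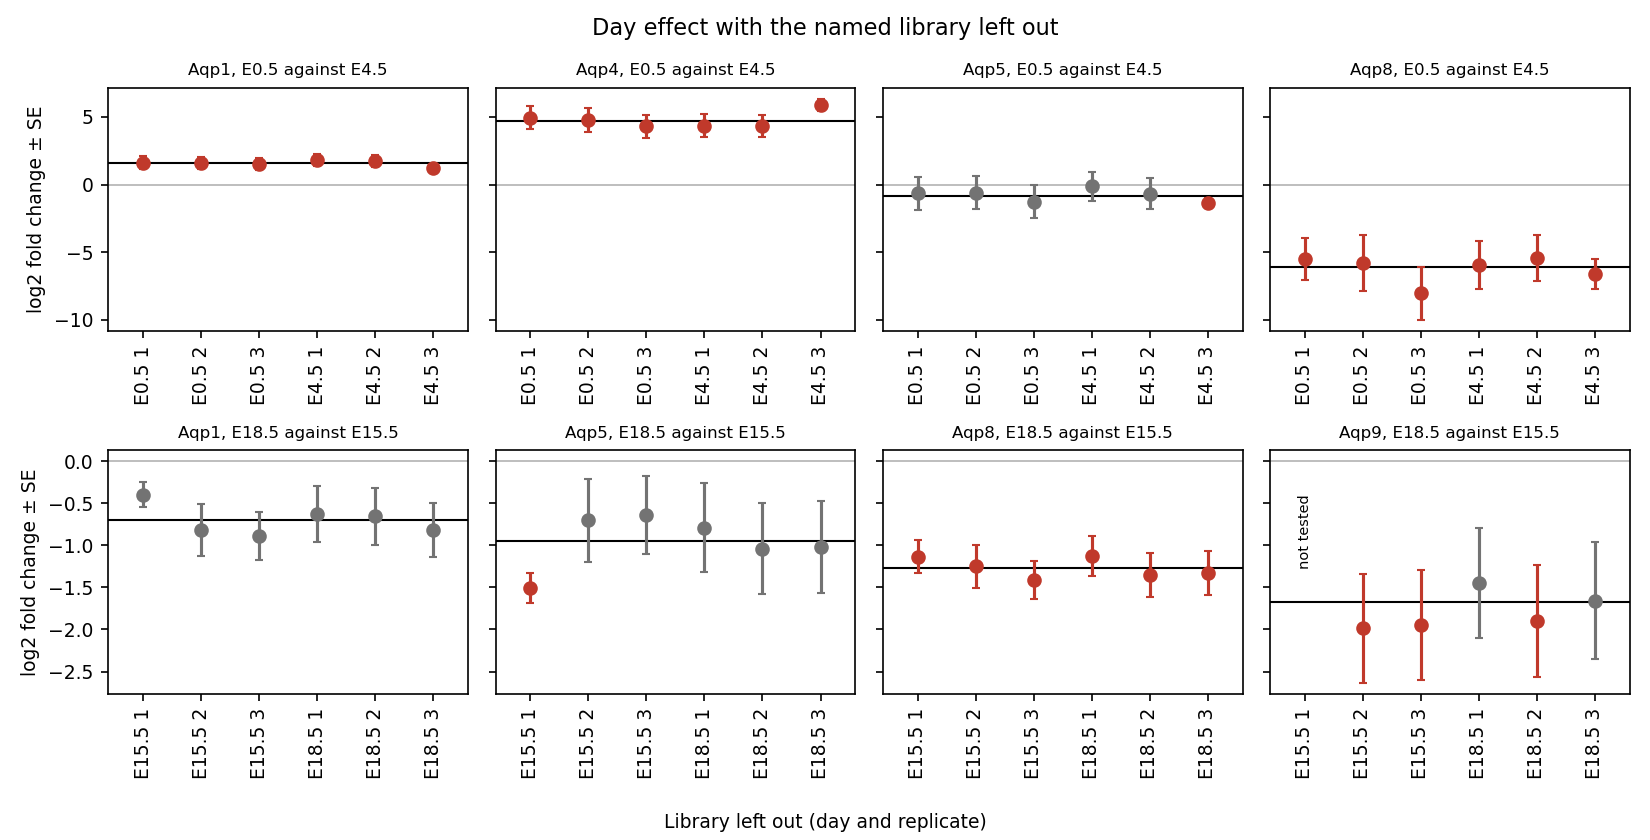
Log2 fold change with its standard error after leaving out the library named under each point, for 4 aquaporins at each stage; red points passed the criterion of the study, the black line is the value with all 6 libraries and the grey line is 0. Aqp1, Aqp4 and Aqp8 stayed past the criterion in all 6 fits of E0.5 against E4.5 and Aqp8 in all 6 of E18.5 against E15.5, while Aqp5 passed it in 1 fit at each stage, without E4.5 replicate 3 and without E15.5 replicate 1.

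Leaving out single libraries shows how far each call rests on 1 mouse. At E0.5 against E4.5, leaving out any 1 of the other 5 libraries gave the calls of Aqp1, Aqp4 and Aqp8 and no member past the adjusted p in edgeR's test, which 0 to 148 of all rows passed in these 5 fits. Without the library labelled E4.5 replicate 3, 4 members were called where 14.2% of all rows were, and 3 (Aqp1, Aqp4 and Aqp8) passed the adjusted p where 6.86% of all rows did. DESeq2 on all 6 libraries put the same 3 members past the adjusted p, with Benjamini-Hochberg adjusted p-values of 0.00272 for Aqp1, 4.97e-10 for Aqp4 and 0.011 for Aqp8, where 10% of all rows passed it. Without E15.5 replicate 1, Aqp5 and Aqp8 were called of the 5 members then tested, where 4.68% of all rows were.

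The low-P4 days of the stages, E0.5 and E18.5, were set against each other by testing the difference of the 2 log2 fold changes, E0.5 against E4.5 minus E18.5 against E15.5. Limma's test over the 12 libraries covered 6 members on log2(FPKM + 0.1). It called Aqp1 and Aqp9 as higher and Aqp8 as lower, 3 of 6 where 11.9% of the 21397 paired rows were called (5.42% higher, 6.51% lower) and 18.2% had an unadjusted p under 0.05. For Aqp1 the difference was 2.37 (SE 0.51, adjusted p = 0.0348, limma with Benjamini-Hochberg), the only one of the 6 past the adjusted p, against 2.7% of all rows. The fold change of Aqp1 was above 0 at the implantation stage and below 0 at the labor stage, and the adjusted p of the difference ranged from 0.0135 to 0.0929 as single libraries were left out. It was above 0.05 without any 1 library of E0.5 or E18.5 and without E15.5 replicate 1 or 2, and under it without any 1 library of E4.5 or without E15.5 replicate 3. For Aqp8 the difference was -3.59 (SE 1.2025, adjusted p = 0.138), since it was lower on both low-P4 days but by far more at E0.5, and without the library labelled E4.5 replicate 3 it was -4.84 (SE 0.63, adjusted p = 0.00258). Without E4.5 replicate 2 it was -2.81, still called, and with a pseudocount of 1 it was -1.41 and not called, against -5.15 and called with a pseudocount of 0.01. For Aqp9 it was 2.14 (SE 0.74, adjusted p = 0.155), 0.50 and not called with a pseudocount of 1, 4.19 and called with a pseudocount of 0.01, and not tested without E0.5 replicate 1 or E15.5 replicate 1, since it was then below the minimum. Aqp5 (0.99), Aqp3 (0.56) and Aqp11 (-0.26) had adjusted p-values between 0.7495 and 0.794. The median difference was 0.78 over the 6 members and -0.14 over all paired rows.

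The make-up of the family in each library follows from these levels. The FPKM of the 9 members summed to 112, 113 and 133 at E0.5, to 74.4, 77.2 and 21.1 at E4.5, to 428, 359 and 308 at E15.5 and to 142, 178 and 187 at E18.5. Aqp1 held 87.3% to 91.8% of this sum at E0.5 and 61.1%, 60.9% and 83.3% at E4.5. Aqp8 held at most 0.23% at E0.5 and 13.8%, 20.8% and 4.12% at E4.5, and Aqp5 held 3.36% to 6.33% and then 22.3%, 15.54% and 2.66%. In the library labelled E4.5 replicate 3 the share of Aqp1 thus lay nearer to those of E0.5 than to those of the other E4.5 libraries. At the labor stage Aqp8 held most of the sum, 61.5% to 66.4% at E15.5 and 55.7% to 60.8% at E18.5, and Aqp1 held 20.6% to 31.1% and 28.3% to 34.3%. The shares of Aqp1 overlapped between the days and those of Aqp8 were apart by less than 1 percentage point, although the sum itself was lower in each E18.5 library than in each E15.5 library.

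**Figure D5:**
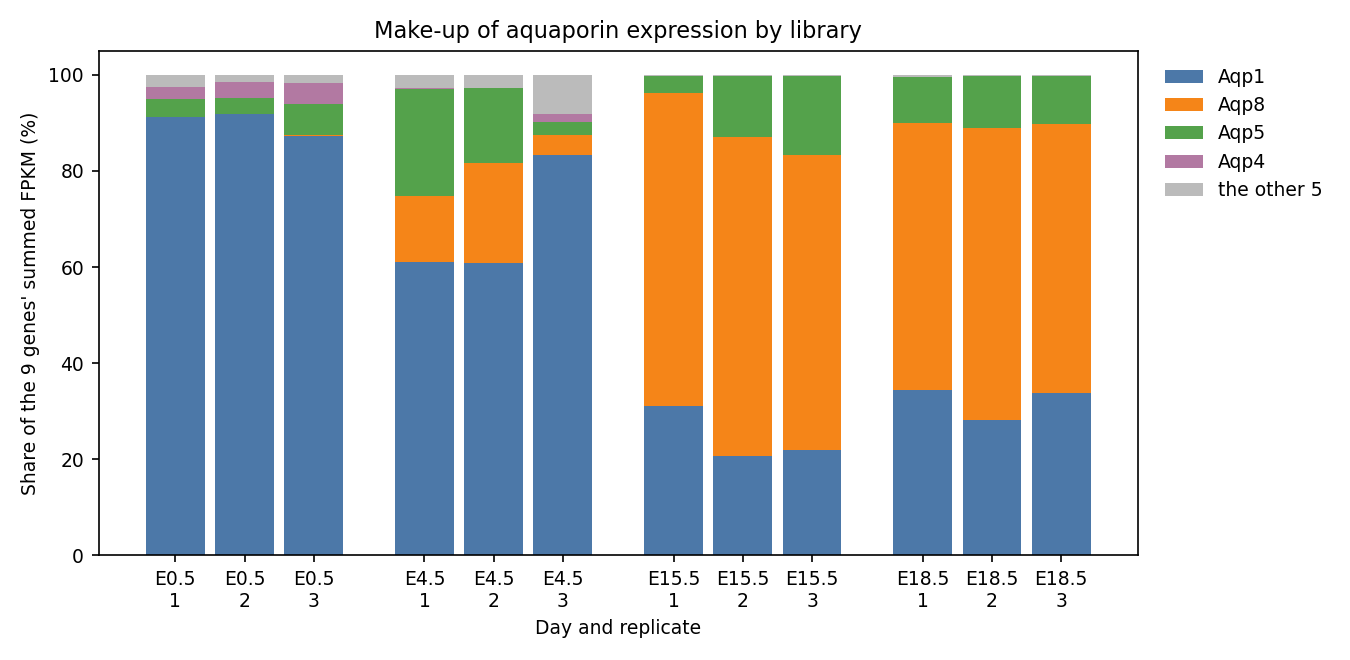
Share of the summed FPKM of the 9 aquaporins held by Aqp1, Aqp8, Aqp5, Aqp4 and the other 5, for each of the 12 libraries. Aqp1 makes up 87.3% to 91.8% at E0.5, and Aqp8 makes up 55.7% to 66.4% in the libraries of E15.5 and E18.5.

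Within a day, the order of the levels was as follows. At E0.5 Aqp1 was far above Aqp5 and Aqp4, whose ranges of 3.79 to 8.44 and 2.57 to 5.96 FPKM overlapped, and Aqp11 and Aqp7 followed with ranges that overlapped each other, as did those of Aqp7 and Aqp3. At E4.5 Aqp1 was the highest in every library, and Aqp5 and Aqp8 came next in replicates 1 and 2, in either order. In the library labelled E4.5 replicate 3 Aqp11 was second at 0.938 FPKM, with Aqp8, Aqp7 and Aqp5 after it. At E15.5 and E18.5 Aqp8 was above Aqp1 and Aqp1 above Aqp5 in every library, with no library of 1 gene reaching those of the next. The other 6 genes were each under 1 FPKM on those days.

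The other genes of the pathway were taken from lists. At E0.5 against E4.5, 6.13% of all rows were called higher and 5.98% lower, with a median log2 fold change of -0.03. Of 20 genes of epithelial ion and fluid transport, which build the osmotic gradient, 3 were called higher and 1 lower, with a median of 0.12. Those higher were the carbonic anhydrase Car2 (log2 fold change 3.46, adjusted p = 0.0414, edgeR quasi-likelihood with Benjamini-Hochberg), the potassium channel Kcnn4 (2.84) and Fxyd4, a regulator of the sodium pump (1.24). The kinase Sgk1, which raises sodium uptake, was lower (-1.71), but it was not called without the library labelled E4.5 replicate 3 (-0.90), where the other 3 were called again and the list's median was -0.07. At E18.5 against E15.5 limma's test called 2 of the 20 higher, Fxyd4 (2.39) and the osmosensitive channel Trpv4 (1.46), and none lower. Of all rows, 2.89% were called higher there and 2.71% lower. In the list, 4 had an unadjusted p under 0.05 with a fold change above 0 and 0 below it. Without E15.5 replicate 1 Fxyd4 was called (2.11) and Trpv4 was not (0.90). The median there was 0.29 against 0.02 for all rows.

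Of 12 genes of glycerol handling, 3 were called higher at E0.5 and 1 lower, where 6.13% and 5.98% of all rows were. None was called at E18.5 against E15.5 by limma's test, where 5.6% of all rows were. There 3 of the 12 had an unadjusted p under 0.05, against 12% of all rows. The lipase Pnpla2 (log2 fold change 1.19, adjusted p = 0.0344, edgeR quasi-likelihood with Benjamini-Hochberg), the row that merges the lipase Lipe with Cxcl17 (1.09) and the glycerol phosphate dehydrogenase Gpd1 (1.04) were higher, and Gpam, which starts triglyceride synthesis from glycerol phosphate, was lower (-1.45). Without the library labelled E4.5 replicate 3 Gpam was not called (-0.63), and 5 genes of the list were called higher, these 3 with Plin1 and Plin4 (1.71), which coat fat droplets. The median over the list was -0.08 with all libraries and 0.19 without that one, and 0.16 at the labor stage. Of 10 genes of vasopressin and cAMP signaling, which moves Aqp2 to the membrane in the kidney, 9 were tested at each stage. The vasopressin receptor Avpr1a was called higher at E0.5 (1.05), and the oxytocin receptor Oxtr at E18.5 (2.04), with medians of 0.28 and 0.42. Without the library labelled E4.5 replicate 3 Avpr1a was not called (1.03, unadjusted p = 0.0748, edgeR's test) and Oxtr was called higher at E0.5 (1.54).

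The remaining marker lists were read with the same tests, which called 12.1% of all rows at E0.5 against E4.5 and 5.6% at E18.5 against E15.5. At E0.5 against E4.5, 5 of 8 ovary markers were called lower, 3 of 5 tested neutrophil markers higher (Ly6g, Mmp9 and Csf3r), 1 of 8 uterus markers higher (Msx1), 1 of 8 stroma and decidua markers higher (Alpl) and 2 lower (Bmp2 and Hand2), and of 3 yolk sac markers Rbp4 higher and Ttr lower. No fat, oviduct, smooth muscle or erythroid marker was called in edgeR's test, and at an unadjusted p under 0.05 the number was 1, an erythroid one. Without the library labelled E4.5 replicate 3, 1 of 4 ovary markers still tested was called lower (Cyp11a1, log2 fold change -3.41), 2 of 4 neutrophil markers higher (Ly6g and Mmp9), 4 stroma and decidua markers lower (Hoxa10 and Prl8a2 besides Bmp2 and Hand2), 2 uterus markers lower (Hoxa10 and Hoxd10) and 1 of 7 oviduct markers higher (Foxj1, 4.11), with Msx1, Alpl, Rbp4 and Ttr called as before. At E18.5 against E15.5, 1 of 7 yolk sac markers (Amn) was called lower, and 1 of 6 neutrophil markers (Cxcr2) and 1 of 4 oviduct markers (Tekt1) higher. No fat, ovary, smooth muscle, uterus or stroma and decidua marker was called there in limma's test, and each of these lists had at most 1 marker at an unadjusted p under 0.05. Without E15.5 replicate 1 the fat marker Retn was called higher (1.43), and Amn, Cxcr2 and Tekt1 were called as before.

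The genes most like each aquaporin were those with the smallest root mean square difference of log2(FPKM + 0.1) from it, after centring each gene on its own mean over the 6 libraries of a table, among genes of at least 1 FPKM on average. Among 14608 genes at the implantation stage these were Hpn (0.06), Cndp2 (0.08) and Gm43719 (0.10) for Aqp1, and Unc5cl (0.32), Ccl28 (0.34) and Slc40a1 (0.37) for Aqp4. For Aqp5 they were Slc5a8 (0.37), Gm6637 (0.38) and Gpx2 (0.39), and for Aqp8 S100g (0.64), Il13ra2 (0.67) and Tac2 (0.71). All 6 genes near Aqp5 or Aqp8 were, like these, lowest of E4.5 in the library labelled replicate 3. Patterns that an aquaporin shares with its nearest genes, here and at the labor stage, follow from how the genes were chosen. S100g, a calcium-binding protein of absorbing epithelia, had 21.2, 28.7 and 52.4 FPKM at E0.5 against 865, 915 and 107 FPKM at E4.5. For Aqp11 they were Gm25835 (0.06), Gm13199 (0.07) and Slc29a2 (0.07).

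Among 13298 genes at the labor stage the nearest to Aqp8 were Gpx6 (0.09), Atp6v0d2 (0.09) and Rubcnl (0.13). Atp6v0d2, a subunit of the proton pump, had 47.0, 39.5 and 29.4 FPKM at E15.5 against 14.1, 20.1 and 19.3 FPKM at E18.5, the same order of libraries as Aqp8 within E15.5 and within E18.5. The nearest to Aqp5 were Casr (0.19), Cyb5rl (0.24) and Lrg1 (0.24), which were lowest of E15.5 in replicate 1 as Aqp5 was. The nearest to Aqp1 were Irak3 (0.08), Urb1 (0.09) and Ulbp1 (0.09), which were highest in E15.5 replicate 1 as Aqp1 was.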

How the data were processed

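The study's methods and the sample labels differ on the library (ribosomal RNA removal and HiSeq in the former, poly(A) RNA and NovaSeq in the latter). The authors trimmed, aligned and assembled the reads and estimated FPKM with StringTie and Ballgown, and the submitters' processing notes name Bowtie 0.12.2, HISAT2 2.0, StringTie 1.3.0 and the builds mm8 and mm10. FPKM was deposited by the authors for both stages, and whole-number counts for E0.5 and E4.5 only. How reads were assigned, and whether by strand, is not given in the sources used here. The 9 member rows of the implantation stage overlapped their RefSeq genes in GRCm38.

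FPKM values of 0.0001 (168941, all with a count of 0) were set to 0. Rows without a gene name (7007 with 1.02% to 1.86% of the counts at the implantation stage, 1332 at the labor stage) were left out. E0.5 against E4.5 was tested on counts with edgeR 4.0.16 (TMM, quasi-likelihood F-test). The labor stage and the difference between stages, over rows that share Ensembl transcripts, were tested on log2(FPKM + 0.1) with limma 3.58.1 (trend) under R 4.3.3. P-values were adjusted by Benjamini-Hochberg across all rows of a test. Limits from counts cover counting error only. The tests were run on simulated data with known changes. Python 3.11.15, pandas 2.3.3, NumPy 2.4.6 and SciPy 1.17.1 made the tables.

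All 9 members are named, with up to 4 called genes per pathway list and stage, called markers beside their list's count, and the 3 genes most like each member of at least 1 FPKM. Members and lists were chosen with earlier results of these data known. Alternatives were other minimums, scalings and pseudocounts, limma or DESeq2 1.42.0 for the implantation stage, limma without trend, no fold change minimum, the replicate number as a block, and leaving out libraries in turn. Chosen after seeing the data were the newer quasi-likelihood default of edgeR, keeping rows without a name, limma with a pseudocount of 0.01 for E0.5 against E4.5, and the gene lists without E4.5 replicate 3 or E15.5 replicate 1. The count of erythroid markers called at E18.5 against E15.5 is not reported here.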

Additional observations from a re-analysis of the deposited data

Results flagged for a closer look

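The effect of the day differed between the stages for 3 members, as tested with limma over the 12 libraries on log2(FPKM + 0.1). The difference of the log2 fold changes (E0.5 against E4.5 minus E18.5 against E15.5) was 2.37 for Aqp1, -3.59 for Aqp8 and 2.14 for Aqp9, where 11.9% of all paired rows were called. Aqp8 and Aqp9 were not called with a pseudocount of 1 (-1.41 and 0.50) and were with one of 0.01 (-5.15 and 4.19). Only the difference of Aqp1 passed an adjusted p under 0.05 (0.0348 by limma with Benjamini-Hochberg adjustment), where 2.7% of all paired rows did.

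A pair of assembled rows that carry an aquaporin name but hold no Ensembl transcript, and so are no members, gave counts in the table of E0.5 and E4.5. The row named Aqp11, 2067 bases long on chromosome 7 from 97721840 to 97723906 and 99 bases from the Aqp11 row, had 330, 291 and 365 counts at E0.5 and 362, 541 and 290 counts at E4.5. The row named Aqp5, 353 bases long on chromosome 15 from 99596034 to 99596386 and starting 1204 bases past the end of the Aqp5 row, had 0, 12 and 0 counts at E0.5 and 53, 15 and 0 counts at E4.5. Their highest counts were 541 and 53, above the limit of 3 counts that a count of 0 allows. Both pairs of groups overlapped.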

How the results depend on the processing

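Over 20 tested results of single members and 301 alternatives, 287 kept the direction and the side of the criterion, 5 lost the call, 2 gained it and 7 turned direction. Those that turned were of genes not called: at E0.5 against E4.5, Aqp3 to -0.51 with the replicate block, -0.71 with limma at a pseudocount of 0.01 and -1.41 without E0.5 replicate 3 (-1.41 to 1.26 over single libraries left out), and Aqp5 to 0.046 and 0.096 with limma at pseudocounts of 0.1 and 0.01. In the difference between stages Aqp3 turned to -0.22 without E0.5 replicate 3 (range -0.22 to 1.22) and Aqp5 to -0.48 without the library labelled E4.5 replicate 3 (range -0.48 to 1.85). The number of members called was 3 at E0.5 against E4.5 under every setting that kept all libraries and 3 to 4 with 1 left out. The number past the adjusted p there was 3 with DESeq2 and 0 to 3 with 1 library left out. At E18.5 against E15.5 the number called was 1 with a mean of at least 1 FPKM, since Aqp9 was then not tested, 1 with a pseudocount of 1, and 1 to 2 with 1 library left out. For the difference between stages it was 1 with a pseudocount of 1 and 2 to 3 with 1 library left out, and 0 to 2 passed the adjusted p. The cause of these changes was not tested where it is not named.

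With a replicate block 3, 2 and 3 members were called in the 3 comparisons, and the number past the adjusted p went from 1 to 0 at E0.5 against E4.5 and from 1 to 0 for the difference between stages. Deviations of same-numbered libraries from their group means correlated at -0.069 to 0.027, and those of different-numbered libraries at -0.076 to 0.101. This gave no sign that the numbers pair the mice, although 3 libraries a group cannot exclude it. The block took all rows past the adjusted p at E0.5 against E4.5 from 739 to 0.

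Of all rows at E0.5 against E4.5, 2545 were called with limma at a pseudocount of 1 instead of 6387, and 5297 (DESeq2), 1529 (newer edgeR default) and 1172 (mean of at least 1 FPKM) passed the adjusted p. At E18.5 against E15.5, 442 (pseudocount of 1) and 711 (mean of at least 1 FPKM) were called instead of 1657, and for the difference 1137 and 1275 instead of 2553. No scaling moved the median of all rows by over 0.1 on the log2 scale. Each group held 3 mice, and the depth behind the FPKM of the labor stage is unknown.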

Other observations

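Of 3 further aquaporins with a row in the table of E0.5 and E4.5, Mip, the channel of the eye lens, had a count of 0 in all 6 libraries, which allows up to 3 counts in each. Aqp6, an intracellular channel of the kidney, had 10 counts (0.0482 FPKM) and Aqp12, known from pancreatic acinar cells, 12 counts (0.128 FPKM) in the library labelled E4.5 replicate 3 and 0 in the other 5. None of these 3 genes had a row of its name in the table of E15.5 and E18.5.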
